A study of Mus musculus with 4 samples.

Results

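Mouse embryonic fibroblasts (MEFs) labelled as expressing Dlx3, after 24 h of transient transfection, were compared with control MEFs on 2 two-colour oligonucleotide arrays, the first array and its biological repeat, out of 4 arrays in the series. The members are these 2 arrays, chosen by their titles. On each, RNA of the Dlx3-expressing cells was in the Cy5 channel and RNA of the control MEFs in the Cy3 channel, and the log2 ratio of the first over the second is the value given throughout. The other 2 arrays hold MEFs stably transfected with a Dlx3-expressing plasmid in Cy5 against cells with an empty plasmid in Cy3. They are used here to estimate the spread and to show where the 24 h response differed. The title of the series asks how Dlx3 regulates Lifr and Chrdl1 in differentiating mouse embryonic stem cells, while the cells on the arrays are fibroblasts. The labels do not say whether the control MEFs of the 24 h arrays received an empty plasmid, so an effect of the transfection itself and an effect of Dlx3 cannot be told apart. The strain, the age of the embryos, the number of cultures and the share of cells that took up the plasmid are not given in the sources used here.

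Dlx3 is a homeodomain transcription factor of the Distal-less family. In the mouse it is known for its roles in the placenta, the epidermis, the hair follicle, the tooth and bone, and mouse embryos that lack it die of placental failure. Homeodomain proteins of this family bind short AT-rich sites with the core TAATT. MEFs are connective tissue cells grown from the embryo, and they secrete collagens, proteoglycans, growth factor binding proteins and chemokines.

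Each array carries 17664 spots, of which 16655 hold transcript oligonucleotides, 817 are blank and 192 hold randomized oligonucleotides that should match no transcript. Of 16463 distinct transcript probes, 14613 were bright enough over local background to be tested. Median transcript intensities were 472 and 566 in the Dlx3 channel and 450 and 561 in the control channel, and 77.3% and 80.9% of the transcript spots stood above background. The randomized oligonucleotides were above background at 28.6% and 43.2% of their spots, so a probe is called bright below only where its brighter channel exceeded the 95th percentile of these spots on both arrays, which 3488 tested probes (23.9%) did. Of 9 fibroblast markers on the array, 5 were bright (Col1a2, Pdgfrb, Sparc, Twist1 and Vim). The summed intensity over the fibroblast list, not normalized, was 203326 and 210395 in the Dlx3 channel against 189562 and 200092 in the control channel. Much of these sums came from Col1a2 (67840 and 67110 in the Dlx3 channel) and Sparc (62247 and 67110). Up to 83% of the pixels of Col1a2 were saturated, so the sums do not measure fibroblast content. Lum was above background nowhere. No epithelial, skeletal muscle or pluripotent cell marker was bright, Kdr was the only bright one of 9 endothelial markers, Tyrobp the only one of 5 blood and macrophage markers and Nes the only one of 5 neural markers.

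The probe for Dlx3 itself, which checks the labels, had intensities of 445 and 579 in the Dlx3-expressing cells and 375 and 407 in the control MEFs. Its log2 ratios were 0.14 and 0.56, a mean of 0.35 ± 0.30 (SD, n = 2 arrays), and this missed the threshold (limma, unadjusted p = 0.023, Benjamini-Hochberg adjusted p = 0.179). Both arrays read higher in the Dlx3 channel, the first by less than the second, and the probe was not bright. This probe was therefore not called as raised after adjustment over all tested probes, and the name Dlx3-expressing cells is that of the labels. Where in the transcript the oligonucleotide lies, and whether the transfected plasmid carries that stretch, was not analysed here. None of the other 6 tested members of the DLX and MSX homeobox list passed the test, and their means lay between -0.10 for Msx2 and 0.18 for Dlx5.

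Across all tested probes, 21 passed the test (limma, Benjamini-Hochberg adjusted p under 0.05), which is 0.144%. Of these, 14 were higher (0.0958%) and 7 lower (0.0479%) in the Dlx3-expressing cells. The higher ones were led by the ATP-gated channel P2rx1, by the bone and cartilage matrix proteins matrix Gla protein and osteoglycin (Ogn), by the growth arrest specific 2 probe and by the collagen-associated protein Cthrc1. The lower ones included the GDNF-family co-receptor Gfra2 and the NF-kB regulator Nfkbiz. Most ratios were small. The median absolute log2 ratio was 0.11, 83.3% of probes lay within 0.25 of 0 and 30 exceeded 1. By size alone and without a test, 15 probes (0.103%) were past 2-fold in the same direction on both arrays, 7 of them also called. The split between directions depended on the normalization, with 143 higher and 504 lower calls after median centring and 12 higher and 3 lower after print-tip loess. Without transient array 1 or transient array 2 there were 3 and 11 calls, of which 1 and 2 were among the 21. P2rx1 was called in both cases and every other call named here was lost in both, while plain background subtraction left 0 calls (3030 probes at an unadjusted p under 0.05).

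**Figure D1:**
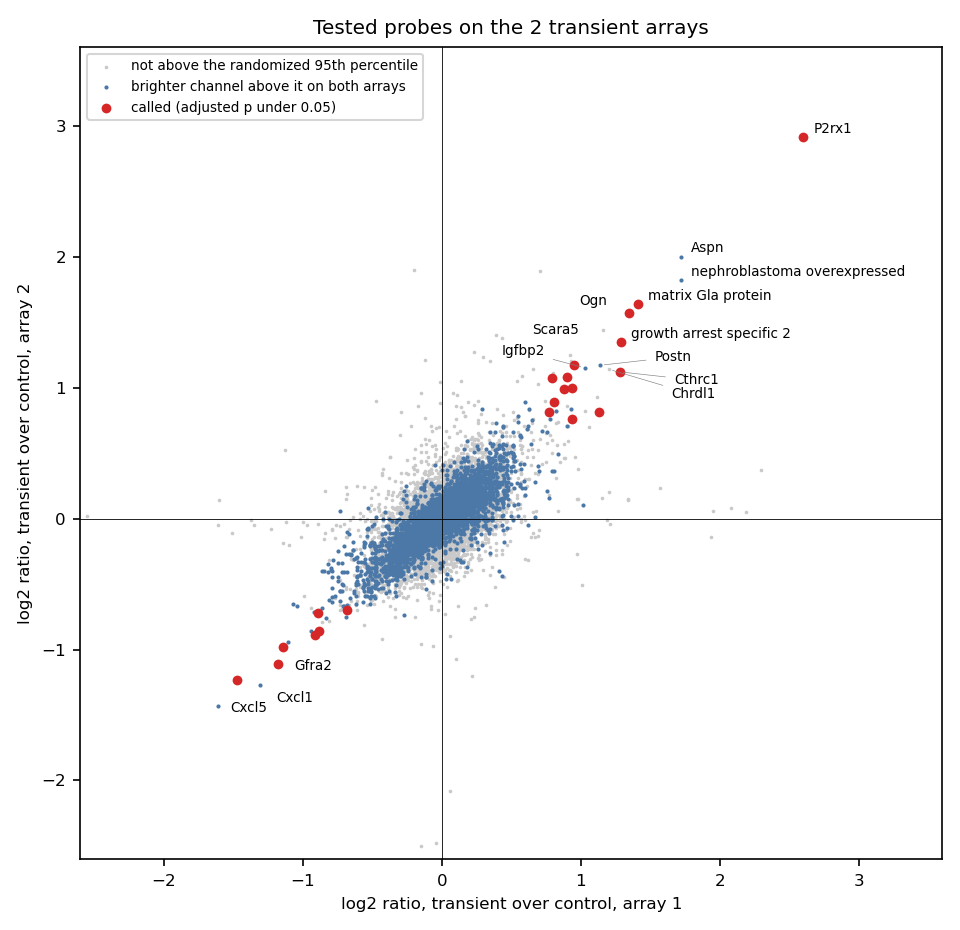
Log2 ratio of Dlx3-expressing over control MEFs on array 1 (x axis) against array 2 (y axis) for each of the 14610 tested probes with both values. Grey points are probes that did not exceed the randomized spots, blue points the 3488 bright probes and red points the 21 called ones, and the labelled probes are past 2-fold on both arrays. Bright and called probes lie along the diagonal, with P2rx1 at 2.60 and 2.91 and Cxcl5 at -1.61 and -1.43 at its ends, while some grey points lie far out on 1 array only.

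The agreement between the 2 biological repeats grew with brightness. Across probes, which are not independent replicates, the Pearson correlation of array 1 with array 2 was 0.636 over all tested probes, 0.837 over the bright ones and 0.0189 over the randomized oligonucleotides. In 4 equal bins from the dimmest to the brightest probes it was 0.325, 0.616, 0.781 and 0.822. The same sign was found on both arrays for 10616 tested probes (72.7%), 5302 of them higher and 5314 lower, and for 81.7% of the bright ones. For the 12 probes printed 10 or more times, the median SD between spots of 1 array was 0.0962 on each array, and the difference between the arrays, multiplied by 0.5 to match the error of a mean, had an SD of 0.0953 over all tested probes. Of the 21 called probes, 10 were bright and 18 had both channels above background on both arrays. An example of a dim gene on which the arrays disagreed is Gpx1, an antioxidant enzyme, at 2.30 and 0.37. Fewer cells with a transcript and less of it per cell cannot be told apart in RNA of whole cultures.

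**Figure D2:**
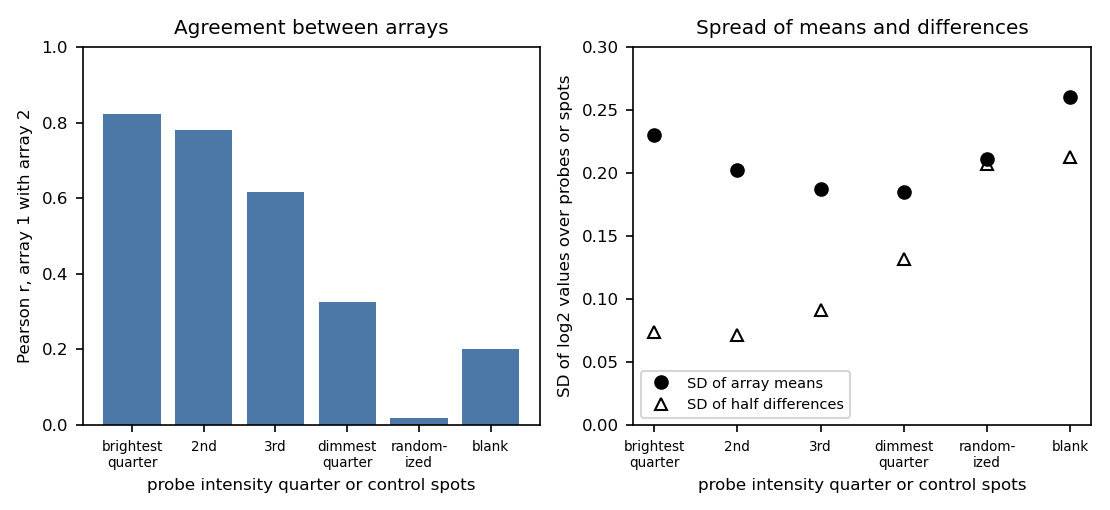
Left, Pearson correlation of the log2 ratios of array 1 with those of array 2, in 4 equal bins of probe intensity and for the randomized and blank spots. Right, SD over probes or spots of the mean of both arrays (filled circles) and of 0.5 times their difference (open triangles), on the log2 scale. Means spread more widely than differences in every bin, and by nearly equal amounts (0.211 and 0.207) for the randomized spots.

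P2rx1, an ATP-gated cation channel known from smooth muscle and platelets, had the highest mean ratio of all tested probes. Its intensity was 374 and 801 in the Dlx3-expressing cells against 117 and 177 in the control MEFs, where it was above background on neither array. The log2 ratios were 2.60 and 2.91, a mean of 2.76 ± 0.22 (SD, n = 2), with the lowest adjusted p of the fit (limma, 0.00171). Set against the lowest signal above background, or the probe's own dim signal where that was higher (1 array), P2rx1 was at least 6.47-fold higher, a nominal bound since that lowest signal need not exceed an undetected one. The probe was not bright, since the 95th percentile of the randomized spots in the Dlx3 channel was 1105 and 1826. The other 8 tested purinergic receptors did not pass the test, and the median of the 9 was -0.02. P2rx6 read 0.50 and 0.49 (adjusted p = 0.0937), P2ry4 0.28 and 0.18, P2rx5 -0.14 and -0.47, and P2rx3 -0.08 and -0.44. For P2rx3 neither channel was above background on either transient array.

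The small leucine-rich proteoglycans, matrix proteins that bind collagen fibrils and growth factors, held 2 of the highest ratios. Osteoglycin (Ogn) had intensities of 5286 and 11259 in the Dlx3-expressing cells against 2215 and 4158 in the control MEFs. It rose by 1.35 and 1.57, a mean of 1.46 ± 0.16 or 2.75-fold (SD, n = 2, adjusted p = 0.0418). Asporin (Aspn), which binds collagen and TGF-beta, had intensities of 2861 and 5581 in the Dlx3-expressing cells against 966 and 1470 in the control MEFs. Its ratios of 1.72 and 2.0 averaged 1.86 ± 0.20, next after P2rx1 among all tested probes. Aspn missed the threshold with a limma adjusted p of 0.0627 in the fit of all 4 arrays, against 0.00805 when the transient arrays were fitted alone. The fit of the transient arrays alone leaves 1 residual degree of freedom and called 8.81% of all tested probes. On the stable arrays Ogn read -0.65 and -0.09 and Aspn 0.12 and -0.96. Of the 8 tested members of the list 1 was called, 6 were above 0 on both arrays and none was below 0 on both, with a median of 0.30 (between 0.22 and 0.37 over the alternatives, apart from 1.46 over its 3 bright members), while all tested probes had a median of 0.00 with 5302 above and 5314 below 0. Fibromodulin (Fmod) read 0.47 and 0.23, biglycan (Bgn) 0.41 and 0.25, epiphycan (Epyc) 0.23 and 0.30 and decorin (Dcn) 0.16 and 0.11.

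Aspn, Omd and Ogn are neighbours on mouse chromosome 13 in RefSeq's gene order (GRCm38.p6), with the proteoglycan-like gene Ecm2 beside them. The Omd probe (osteomodulin) was above background in neither channel and was not tested, and its ratios were 0.74 and 0.69. Ecm2 was not tested either. Of the genes on either side, Nol8 read -0.48 and -0.31 (adjusted p = 0.0939), Iars 0.02 and -0.13, and the 2 probes for Cenpp averaged -0.18 and 0.04, all below the ratios of Aspn and Ogn. The 250 bases before the annotated start of Aspn, of Ogn and of P2rx1 are printed from RefSeq (GRCm38.p6, all on the plus strand) because these genes had the highest ratios with a listed promoter, and TAATT or its reverse complement AATTA, the core that homeodomain proteins bind, is in capitals. The windows are chr13:49544193-49544442 for Aspn, chr13:49607765-49608014 for Ogn and chr11:72998895-72999144 for P2rx1.
Aspn: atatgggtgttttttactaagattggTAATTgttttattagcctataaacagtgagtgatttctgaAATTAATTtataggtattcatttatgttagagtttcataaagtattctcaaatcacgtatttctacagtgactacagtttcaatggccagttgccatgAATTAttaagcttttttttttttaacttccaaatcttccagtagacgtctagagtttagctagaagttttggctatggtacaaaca
Ogn: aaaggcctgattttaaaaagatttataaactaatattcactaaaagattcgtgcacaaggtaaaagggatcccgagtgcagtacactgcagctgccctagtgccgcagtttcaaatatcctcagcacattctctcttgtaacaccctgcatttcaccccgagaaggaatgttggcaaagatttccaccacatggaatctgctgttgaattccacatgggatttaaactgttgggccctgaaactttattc
P2rx1: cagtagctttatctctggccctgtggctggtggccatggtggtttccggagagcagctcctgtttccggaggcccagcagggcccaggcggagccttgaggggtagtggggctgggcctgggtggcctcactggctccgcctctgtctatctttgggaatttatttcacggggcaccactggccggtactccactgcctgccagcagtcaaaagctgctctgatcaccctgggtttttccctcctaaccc
The Aspn window held 4 matches, starting 224, 184, 181 and 86 bases before the start of the gene, of which those at 184 and 181 overlap. The Ogn and P2rx1 windows held none. A match on either strand was found in 25% of 32851 mouse promoter windows of this length and in 17.4% of the 10444 that belong to tested genes. Among 44 genes (Dlx3, Lifr, Chrdl1 and those called, past 2-fold or among the most changed bright probes), 25 had a listed promoter and 7 held a match, 5 of the 15 with a positive mean and 2 of the 10 with a negative one. A gene counts here if any of its listed windows held a match, and some genes had several windows. These counts of genes are therefore not comparable with the shares of windows.

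Other secreted matrix proteins mostly had ratios above 0, and 3 probes of this kind were called. The probe for matrix gamma-carboxyglutamate (Gla) protein, an inhibitor of calcification made by cartilage and vessel wall, had intensities of 9272 and 18092 in the Dlx3-expressing cells and 3948 and 6186 in the control MEFs. It rose by 1.41 and 1.64, a mean of 1.52 ± 0.17 or 2.88-fold (adjusted p = 0.0157). Cthrc1, a secreted protein that limits collagen deposition, had intensities of 9072 and 5417 in the Dlx3-expressing cells against 4370 and 2569 in the control MEFs and rose by 1.28 and 1.12 (mean 1.20 ± 0.11, adjusted p = 0.0227). For both genes the lower of the intensities in the Dlx3-expressing cells, not normalized, exceeded the higher of those in the control MEFs. Both were picked by their ratios, and the share of all probes that separate in this way was not counted. Tgfbi, a matrix protein induced by TGF-beta, rose by 1.13 and 0.81 (mean 0.97 ± 0.22, adjusted p = 0.0459). Periostin (Postn), a matrix protein of periosteum and healing tissue, was past 2-fold on both arrays at 1.14 and 1.17 and was not called (adjusted p = 0.225), and its stable arrays read -1.73 and 0.47. The spread between the stable arrays enters the shared error, and in the transient arrays alone Postn had an adjusted p of 0.00805.

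Over the list of other extracellular matrix proteins, 2 of 30 tested members were called, both higher, and 21 were above 0 on both arrays against 8 below, with a median of 0.19. Fitting the transient arrays alone, which calls 1288 probes (8.81% of all tested, 3.83% higher and 4.98% lower), called 11 of the 30 higher and 2 lower. Among the higher values were the basement membrane protein Nid2 at 0.91 and 0.71, the microfibril proteins Mfap2 at 0.61 and 0.68 and Mfap4 at 0.58 and 1.09, and the fibulins Fbln1 at 0.51 and 0.56 and Fbln5 at 0.29 and 0.40. Thrombospondin 2 (Thbs2) read -0.33 and -0.43, osteopontin (Spp1) -0.47 and -0.35 and tenascin C (Tnc) -0.25 and -0.19. The list median stayed above 0 under all 16 alternatives, between 0.05 and 0.22.

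The collagens were divided. Col8a1, a short-chain collagen of vessel walls and of the corneal basement membrane, fell by 0.91 and 0.89 (mean -0.90 ± 0.01, adjusted p = 0.0248), with intensities of 1296 and 1354 in the Dlx3-expressing cells against 2547 and 2551 in the control MEFs. No other collagen was called. Col5a3 read -0.43 and -0.48, while Col11a1 read 0.96 and 0.47, Col6a1 0.37 and 0.39 and Col1a2 0.45 and 0.22, the last with up to 83% of its pixels saturated. The 10 tested collagens had a median of 0.20, which lay between 0.03 and 0.27 over the alternatives. The metalloproteinases and their inhibitors had the same median of 0.20 with no call, 12 of 14 members being above 0 on both arrays. Mmp14, a membrane-bound collagenase, read 0.47 and 0.41, and Timp2, an inhibitor, 0.40 and 0.25.

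Matricellular proteins and binding proteins of growth factors had ratios in both directions. The nephroblastoma overexpressed probe, for a matricellular protein of the CCN family, read 1.72 and 1.82 with intensities of 6027 and 6110 in the Dlx3-expressing cells against 2091 and 1836 in the control MEFs, and was not called (adjusted p = 0.14, and 0.00598 in the transient arrays alone). Its stable arrays, which enter the shared estimate of spread, read 0.18 and 2.61. Its relatives Ccn1, Ccn2 and Ccn4 averaged -0.15, -0.14 and -0.19, and Ccn5 averaged 0.33. Among binding proteins of insulin-like growth factors, Igfbp2 was past 2-fold higher at 1.03 and 1.15 (adjusted p = 0.159) and Igfbp7 read -0.94 and -0.86 (adjusted p = 0.105).

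**Figure D3:**
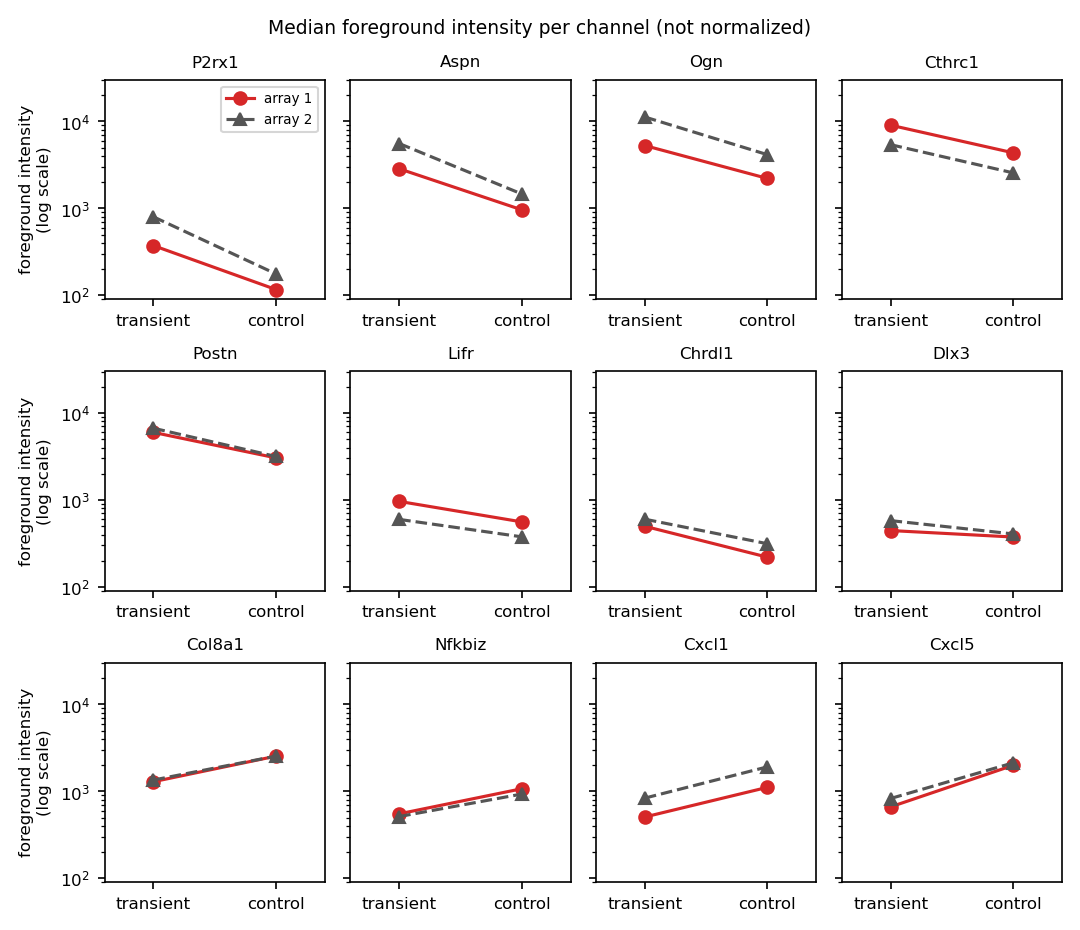
Median foreground intensity (log scale, scanner units, not normalized) of 12 probes in the Dlx3-expressing cells (left of each panel) and the control MEFs (right), with array 1 as circles and array 2 as triangles. Lines slope down to the control for P2rx1, Aspn, Ogn, Cthrc1, Postn, Lifr and Chrdl1, change little for Dlx3, and slope up to the control for Col8a1, Nfkbiz, Cxcl1 and Cxcl5.

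Both genes in the title of the series had ratios above 0 on each transient array, and neither passed the test. Chrdl1, which is secreted and binds bone morphogenetic proteins (BMPs) so that they cannot reach their receptors, had intensities of 498 and 601 in the Dlx3-expressing cells against 220 and 314 in the control MEFs. Its ratios of 1.20 and 1.14 averaged 1.17 ± 0.04 (adjusted p = 0.129, and 0.00805 in the transient arrays alone), and the stable arrays, at -0.06 and 1.45, differed from each other. The other probe of this gene, which the files list as ventroptin-alpha, read 0.28 and 0.40 at intensities of 180 and 261 in the Dlx3-expressing cells against 139 and 201 in the control MEFs and was above background on 1 array only. Lifr, the receptor of leukaemia inhibitory factor, had intensities of 963 and 598 in the Dlx3-expressing cells against 560 and 377 in the control MEFs, and its ratios of 0.84 and 0.74 averaged 0.79 ± 0.07 or 1.73-fold (adjusted p = 0.065, and 0.0182 alone). Neither Chrdl1 nor Lifr was bright.

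Other genes of these pathways mostly had ratios above 0, and none was called. Of 27 tested BMP ligands, receptors, antagonists and ID targets, 19 were above 0 on both arrays and 2 below, with a median of 0.13, and 7 were called higher in the transient arrays alone (3.83% of all probes were). The ligand Bmp4 read 0.71 and 0.61 (adjusted p = 0.0627), the BMP target genes Id3 and Id2 0.42 and 0.48, and 0.34 and 0.28, and the secreted follistatin relative Fstl1 0.34 and 0.34. Bmp5 read -0.22 and -0.42. Of 13 tested genes of the LIF and interleukin-6 family, 8 were above 0 on both arrays and 1, the kinase Jak2 at -0.30 and -0.22, was below. The shared receptor subunit Il6st read 0.35 and 0.30, the oncostatin M receptor Osmr 0.24 and 0.31 and the feedback inhibitor Socs3 0.29 and 0.13. The medians kept their sign under every alternative, between 0.11 and 0.19 for the BMP list and between 0.04 and 0.22 for the LIF list.

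Chemokines and genes of NF-kB feedback mostly had ratios below 0, and Nfkbiz was called. Nfkbiz, a nuclear protein of the IkB family that acts on secondary NF-kB targets, fell by 1.14 and 0.98 (mean -1.06 ± 0.12, adjusted p = 0.0459), with intensities of 553 and 515 in the Dlx3-expressing cells against 1074 and 933 in the control MEFs. The neutrophil chemokine Cxcl5 had the lowest mean ratio of all tested probes, with arrays at -1.61 and -1.43, with intensities of 665 and 830 in the Dlx3-expressing cells against 1995 and 2131 in the control MEFs, and was not called (adjusted p = 0.096). Cxcl1, of the same family, read -1.31 and -1.27 with intensities of 509 and 839 in the Dlx3-expressing cells against 1115 and 1918 in the control MEFs (adjusted p = 0.0708). For each of these 3 genes the higher intensity in the Dlx3-expressing cells, not normalized, lay below the lower one in the control MEFs. The genes were picked by their ratios, and the share of all probes that separate in this way was not counted. All 3 were above 0 on both stable arrays, at 1.06 and 2.64 for Cxcl5, 0.55 and 1.54 for Cxcl1, and 0.53 and 0.91 for Nfkbiz.

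Further members of this group read in the same direction without a call. The monocyte chemokine Ccl2 read -1.11 and -0.94 and its chromosome 11 neighbour Ccl7 -1.07 and -0.65, both bright. The prostaglandin synthase Ptgs2 read -0.94 and -0.68 (adjusted p = 0.072), the interferon-induced chemokine Cxcl10 -0.59 and -0.43, and the acute-phase gene Saa3 -0.45 and -0.47. Saa3 was above background on neither array in the Dlx3 channel and on 1 array in the control channel. The NF-kB subunits themselves were near 0, with means of 0.01 for Nfkb1, -0.06 for Rela, 0.05 for Relb and 0.10 for Rel, and the inhibitor Nfkbia read -0.25 and -0.26. Of 27 tested members, 1 was called, 17 were below 0 on both arrays and 4 above, with a median of -0.20, and the transient arrays alone called 8 lower and none higher (4.98% of all probes were called lower). The median lay between -0.30 and -0.17 over the 16 alternatives. The 250 bases before the start of Cxcl1 (RefSeq, GRCm38.p6, chr5:90890995-90891244, plus strand) are printed because Cxcl1 is the only one of the 25 genes above whose window holds GGGA followed after any 2 bases by TTCC, an arrangement that NF-kB dimers bind, searched on both strands and shown in capitals.
Cxcl1: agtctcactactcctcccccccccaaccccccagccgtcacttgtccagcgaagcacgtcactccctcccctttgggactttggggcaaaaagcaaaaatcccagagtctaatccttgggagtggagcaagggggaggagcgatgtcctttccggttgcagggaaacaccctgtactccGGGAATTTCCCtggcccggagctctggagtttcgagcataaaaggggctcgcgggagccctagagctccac
It held 2 overlapping matches, starting 71 and 70 bases before the start, and 1.21% of all 32851 windows and 1.17% of those of tested genes held this motif. Cxcl5, Ccl2, Ccl7 and Nfkbiz had no listed promoter, so they were not searched.

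In the WNT pathway 1 of 36 tested genes was called. Lef1, a transcription factor that carries WNT signals with beta-catenin and is itself a WNT target, fell by 0.88 and 0.86 (mean -0.87 ± 0.01, adjusted p = 0.0248), with intensities of 363 and 289 in the Dlx3-expressing cells against 626 and 539 in the control MEFs. The secreted WNT antagonist Sfrp1 read 1.12 and 0.93 (adjusted p = 0.0627). Among ligands, Wnt16 read 0.88 and 0.46 and Wnt10b -0.54 and -0.66, and among receptors Fzd1 read 0.56 and 0.63, Fzd6 0.52 and 0.48 and the co-receptor Lrp6 0.61 and 0.47. The target gene Axin2 read -0.09 and -0.20 and beta-catenin (Ctnnb1) 0.52 and 0.48. Over the list, 24 genes were above 0 on both arrays and 7 below, with a median of 0.10 that lay between 0.08 and 0.20 over the alternatives.

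Gfra2, a membrane-anchored co-receptor for neurturin and other ligands of the GDNF family, fell by 1.18 and 1.11 (mean -1.15 ± 0.05, adjusted p = 0.0248). Its intensities were 349 and 367 in the Dlx3-expressing cells against 656 and 719 in the control MEFs. The ligand Gdnf read -0.66 and -0.54 (adjusted p = 0.065). The other co-receptors read -0.21 and 0.02 for Gfra3, -0.03 and 0.04 for Gfra4 and 0.41 and 0.16 for Gfra1, and the signalling receptor Ret 0.07 and 0.18. The list of 13 had a median of -0.09, with 3 above and 5 below 0 on both arrays, and the median was 0.00 after print-tip loess.

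Signalling enzymes and receptors made up a further group of calls. Camk4, a calcium and calmodulin-dependent kinase, rose by 0.95 and 1.17 (mean 1.06 ± 0.15, adjusted p = 0.0408), with intensities of 457 and 1055 in the Dlx3-expressing cells against 226 and 499 in the control MEFs. None of the other 12 tested genes of the calcium list was called, their means lying between -0.16 and 0.11. The phospholipase C epsilon 1 probe, for an enzyme that releases calcium from stores downstream of Ras, rose by 0.94 and 1.00 (adjusted p = 0.0288). The Eph receptor A3 probe, for a receptor tyrosine kinase of cell contact, rose by 0.88 and 0.99 (adjusted p = 0.0248). Both of these probes were dim, between 347 and 763 in the Dlx3 channel. Apod, a secreted lipid carrier, rose by 0.79 and 1.07 (mean 0.93 ± 0.20, adjusted p = 0.0459) and was bright.

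The growth arrest specific 2 probe, for an actin-associated protein first found in growth-arrested fibroblasts, rose by 1.29 and 1.35 (mean 1.32 ± 0.05, adjusted p = 0.0157), with intensities of 1787 and 2741 in the Dlx3-expressing cells against 788 and 1158 in the control MEFs. Sesn3, a stress-induced inhibitor of mTOR signalling, had 2 probes that agreed, at 0.77 and 0.81 (adjusted p = 0.0459) and at 1.03 and 0.82 (adjusted p = 0.0627). Gadd45a, a damage-response gene, read 0.80 and 1.11 (adjusted p = 0.0708) and the cell-cycle inhibitor Cdkn2a 0.38 and 0.41, while Trp53 read -0.22 and -0.26 and Gadd45g -0.34 and -0.31. The p53 list, counted on the second Sesn3 probe, had no call among 14 tested genes, 10 above and 4 below 0 on both arrays and a median of 0.18. In the cell cycle list none of 31 genes was called, 13 were above and 11 below 0 on both arrays, and the median of 0.04 became -0.10 after median centring.

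Among the remaining calls, Cd151, a tetraspanin that binds laminin-binding integrins, fell by 0.89 and 0.72 (mean -0.81 ± 0.12, adjusted p = 0.0459). Its partner integrin Itga3 read -0.34 and -0.50, and Itga6 -0.08 and 0.08. Fkbp4, a co-chaperone of HSP90 in steroid receptor complexes, fell by 0.68 and 0.70 (mean -0.69 ± 0.01, adjusted p = 0.0459). Of other partners of HSP90, Ppid at -0.52 and -0.44 and Cdc37 at -0.40 and -0.48 read in the same direction, while Ptges3 and Stip1 were near 0 at 0.01 and -0.02. The heat shock protein Hsph1, on the same list, read -0.70 and -0.41. The HSP90 list had 10 of 17 members below 0 on both arrays, 2 above and a median of -0.12. The RIKEN cDNA 0610007O07 probe, bright at 10071 and 10848 in the Dlx3 channel, rose by 0.81 and 0.89. A probe for a transcript similar to oculospanin rose by 0.94 and 0.76, and each of its channels was above background on 1 array only. Serf1 rose by 0.90 and 1.08 (adjusted p = 0.0248), but its control channel was above background on neither array, so the 1.98-fold ratio is set against an undetected signal and is no bound.

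Beyond the calls, bright probes with large and repeatable ratios gave a fuller picture. On the higher side were the secreted growth factor precursor Grn at 0.93 and 0.84, the heparan sulfatase Sulf2 at 0.82 and 0.82, the nuclear non-coding RNA Malat1 at 0.90 and 0.71, the mesenchymal cadherin Cdh11 at 0.78 and 0.76 and the class I histocompatibility gene H2-Q7 at 0.63 and 0.84. On the lower side were the transferrin receptor Tfrc at -0.83 and -0.76, the ribonucleoprotein Nop10 at -1.04 and -0.67, the RNA-processing factor Lsm6 at -0.92 and -0.71 and the translocon subunit Sec61b at -0.86 and -0.68. Their adjusted p-values lay between 0.0627 for Malat1, Nop10, Lsm6 and Sec61b and 0.243 for Cdh11, so none was called. Scara5, a ferritin receptor, was past 2-fold at 1.16 and 1.44 (adjusted p = 0.0878), but its second probe read -0.09 and -0.05, so the 2 probes disagree.

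**Figure D4:**
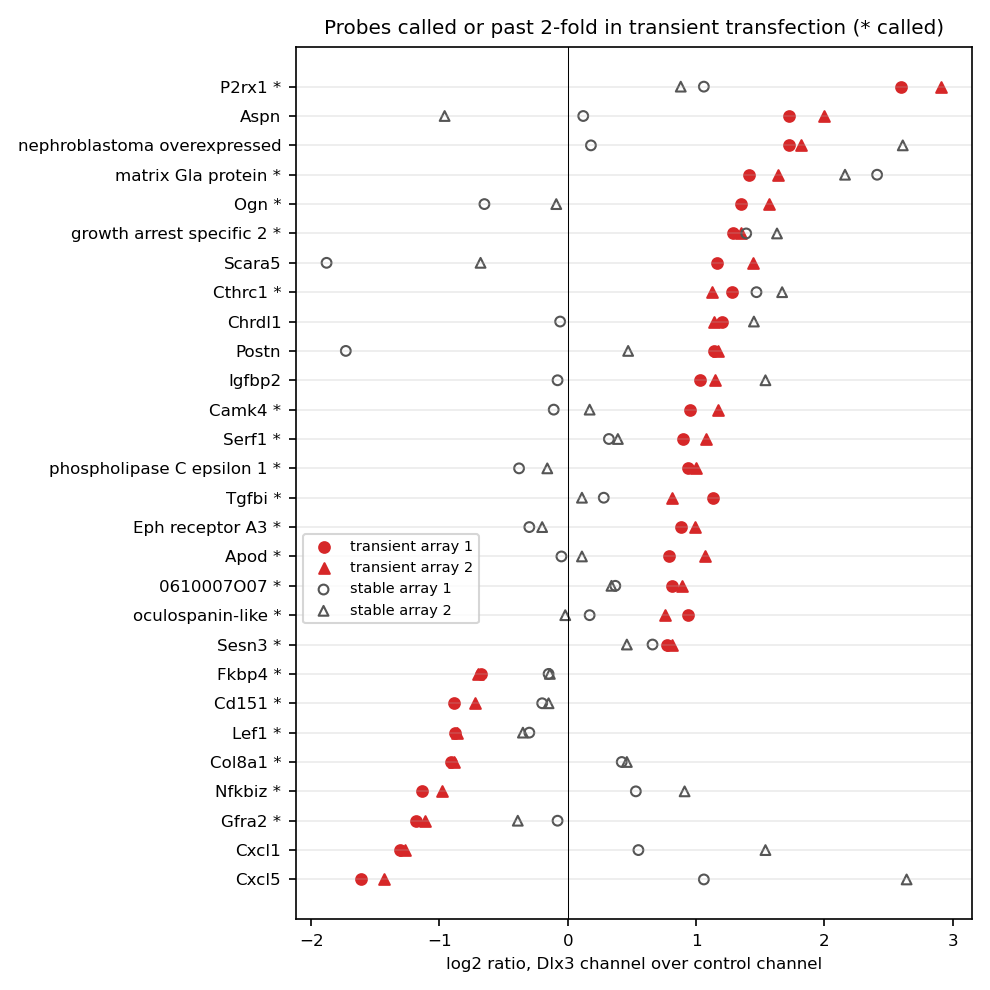
Log2 ratio of the Dlx3 channel over the control channel for probes that were called (asterisk) or past 2-fold on both transient arrays, except 1 not reported here. Filled red symbols are transient arrays 1 and 2 and open grey symbols stable arrays 1 and 2. The red pairs lie close together, the stable pairs of Postn, Igfbp2, Chrdl1 and nephroblastoma overexpressed lie far apart, and those of Cxcl1, Cxcl5, Nfkbiz and Col8a1 lie on the other side of 0.

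Genes of protein synthesis, protein breakdown and respiration mostly read below 0, and none was called. Of 28 tested proteasome subunits 26 were below 0 on both arrays and none above, with a median of -0.22 and means between -0.47 for Psma7 and 0.06 for Psmb10, an immunoproteasome subunit. Of 49 tested genes of oxidative phosphorylation 38 were below 0 on both arrays and 5 above, with a median of -0.17 (-0.23 on array 1 and -0.11 on array 2) and means between -0.72 and 0.25, and cytochrome c (Cycs) read -0.81 and -0.62 and the cytochrome oxidase subunit Cox6c -0.68 and -0.41. Of 60 cytosolic ribosomal proteins 40 were below and 5 above, with a median of -0.15 (-0.23 on array 1 and -0.10 on array 2) and means between -0.63 and 0.36, and Rpl27 read -0.80 and -0.38. The transient arrays alone called 4, 6 and 9 genes of these 3 lists lower (4.98% of all probes were called lower) and only 1 ribosomal gene higher. These genes are mostly bright (24, 41 and 55 of those tested), the median over all bright probes was 0.01, and the medians became -0.39, -0.33 and -0.34 after median centring, which leaves intensity-dependent dye differences in place. On the stable arrays, with the dyes in the same orientation, the medians of these 3 lists were -0.37, -0.07 and -0.03. The proteasome median was thus lower there than on the transient arrays. What share of these ratios comes from the dyes was not tested, since no array had them swapped.

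Other lists held no call. Interferon response genes had a median of 0.16, with 0.06 on the first array and 0.26 on the second and 19 of 29 above 0 on both, and Irf7 read 0.37 and 0.57 and Ifi44 0.39 and 0.73, while Ifnb1 read -0.20 and -0.33. Cholesterol synthesis genes had a median of 0.14, with 10 of 12 above 0 on both arrays, and bone and cartilage genes one of 0.13, with Sox9 at 0.64 and 0.41. Immediate early genes were split, with Fos at 0.82 and 0.73 and Fosl1 at -0.73 and -0.70. Lists for tissues in which Dlx3 is known to act held no call either. Of 22 tested epidermal and hair genes none was called, with a median of 0.06 and Dsc3, a desmosomal cadherin, lowest at -0.51 and -0.51, and of 13 trophoblast and placenta genes none was called, with a median of 0.00 and Cdkn1c highest at 0.51 and 0.55. Over all 29 lists, 12 of 600 distinct tested genes were called, where 0.144% of all tested probes were. The lists were chosen with earlier results of these data known, so nothing is read from this share.

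**Figure D5:**
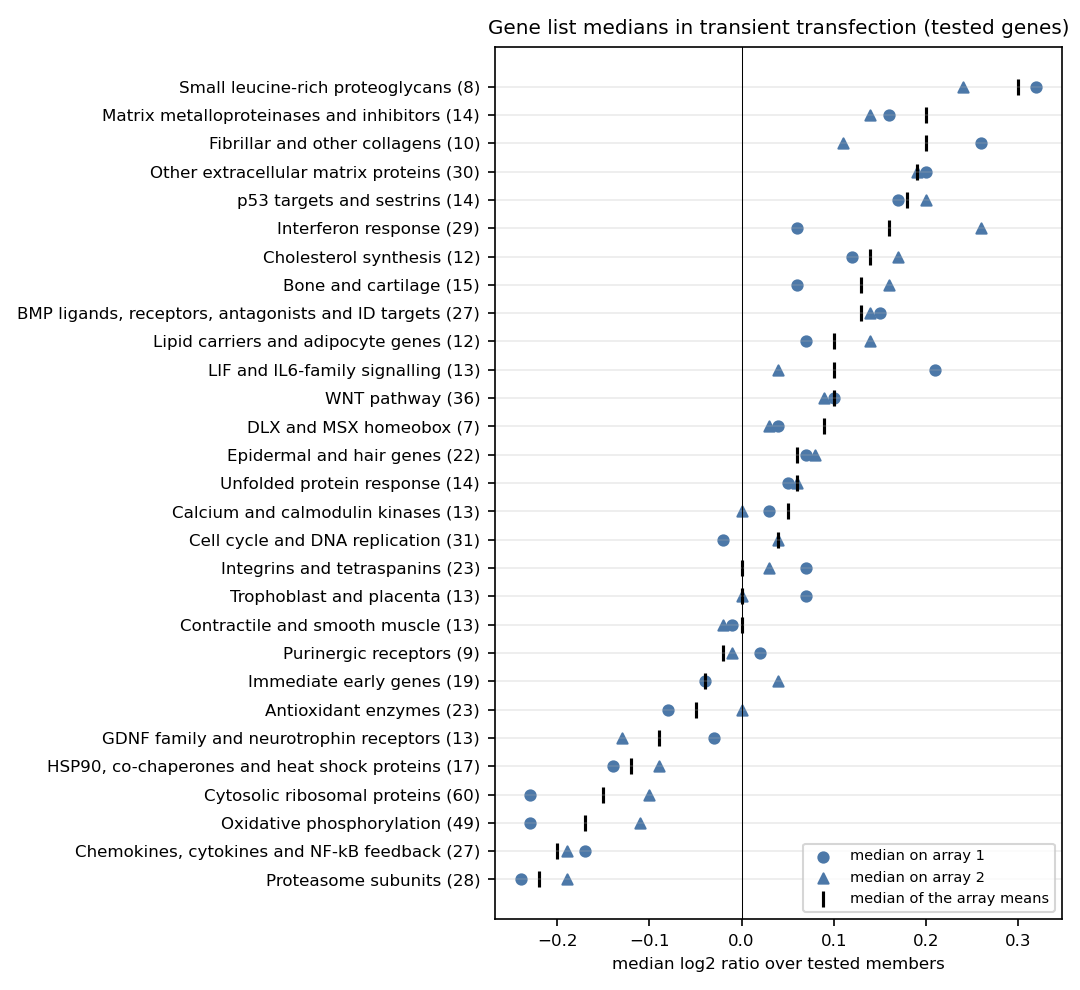
Median log2 ratio of Dlx3-expressing over control MEFs over the tested members of each gene list (number tested in brackets), on array 1 (circles), on array 2 (triangles) and over the array means (bars). The lists run from small leucine-rich proteoglycans at 0.30 at the top to proteasome subunits at -0.22 at the bottom, and the median of all tested probes is 0.00.

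The 24 h ratios differed from those of stable transfectants at 35 of 14611 probes (0.24%, limma adjusted p of the difference under 0.05). The control on the stable arrays was cells with an empty plasmid, and what the control MEFs of the 24 h arrays received is not stated. The kind of control and the kind of transfection therefore cannot be told apart in this difference. Across probes, the transient and stable means correlated with r = 0.431, and both comparisons carry the dyes in the same orientation, which a dye effect of a probe would share. For 22 of the 35 probes both transient arrays had one sign and both stable arrays the other. Picking probes by a large difference favours opposite signs, and the share of all tested probes with opposite signs was not counted. Ogn averaged 1.46 in the transient arrays and -0.37 in the stable ones, a difference of 1.83 (adjusted p = 0.0417). Col8a1 averaged -0.90 in the transient and 0.44 in the stable arrays (difference -1.34, adjusted p = 0.0218), and Nfkbiz -1.06 in the transient and 0.72 in the stable arrays (difference -1.78, adjusted p = 0.0265). Cebpd, a transcription factor of the acute-phase response, read -0.47 and -0.44 in the transient arrays against 0.93 and 0.84 in the stable ones (difference -1.34, adjusted p = 0.0218). For Cxcl1 and Cxcl5 the differences were -2.34 and -3.37 and missed the threshold (adjusted p = 0.0594 and 0.0681).

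The difference was also called for P2rx1 and for the phospholipase C epsilon 1 and Eph receptor A3 probes, whose values are given further below. For the remaining calls no difference between transient and stable arrays was called. Matrix Gla protein averaged 1.52 in the transient and 2.29 in the stable arrays (adjusted p of the difference 0.113), and Cthrc1 averaged 1.20 in the transient and 1.57 in the stable arrays (0.211). The growth arrest specific 2 probe averaged 1.32 in the transient and 1.51 in the stable arrays (0.431). Others were nearer 0 in the stable arrays. Camk4 averaged 1.06 in the transient and 0.03 in the stable arrays (0.0681), Apod 0.93 in the transient and 0.03 in the stable arrays (0.0883), Tgfbi 0.97 in the transient and 0.19 in the stable arrays (0.113) and Gfra2 -1.15 in the transient and -0.24 in the stable arrays (0.0821). Of the genes not called, Lifr averaged 0.79 in the transient and 0.56 in the stable arrays (0.416), and Chrdl1 1.17 in the transient and 0.69 in the stable arrays (0.568). A p that misses the threshold does not show that these values were alike, and with 2 arrays per group their number limits the precision.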

How the data were processed

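The deposited scanner tables give, per the file headers, the foreground and background intensity of each spot in the Cy5 and Cy3 channels, read with GenePix Pro 5.0.0.49 and not normalized. They also give the percent of saturated pixels and a flag score per spot, per the file headers (-100 for bad spots, -50 for spots not found). The authors' deposited value table holds a signed score per spot with column medians of -1.002 on both transient arrays. Its scale, centring and direction are not given in the sources used here. Minus the log2 of its negated values correlated with the scanner log2 ratios at r = 0.862 and 0.912 on the transient arrays, and in that form it served as an alternative. Per the labels' protocols, RNeasy RNA was labelled by the aminoallyl method.

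Here, limma 3.58.1 in R 4.3.3 corrected mean foreground for median background (normexp, offset 50) and normalized each array by global loess with control and bad spots at weight 0. Spots of 1 probe were averaged. To be tested, a probe needed a median foreground over background plus 2 background SDs (1 channel sufficed) on 2 or more of 4 arrays. lmFit and eBayes, with 1 mean per transfection type on all 4 arrays, left 2 residual degrees of freedom, and p-values are two-sided with Benjamini-Hochberg adjustment over all tested probes. A call is an adjusted p under 0.05. Fold bounds come from loess and Aquantile normalized channels, which are open to dye bias because no array had the dyes swapped. The labels call the second array a biological repeat without naming separate cultures, so p-values measure only the spread between these arrays, which may be technical. The script was tested on simulated data.

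Of 16463 probes, 6676 were named by RefSeq accession and 5760 by clone name (assembly GRCm38.p6), and 847 of 851 with both routes agreed in symbol. The remaining 4027 are called by their description. The rule for named genes took Dlx3, Lifr and Chrdl1, all called probes, all probes past 2-fold on both arrays, the 12 highest and 12 lowest bright probes with a symbol, and up to 5 members per gene list by p. It also took the 6 largest per direction that differed from stable transfection. Other list members are given to show the rest of their group and were chosen after their values were seen, as were second probes and neighbouring genes. The members and the gene lists were chosen with earlier results of these data known. Of the genes this rule takes, 2 are not reported here. Promoter windows hold the 250 bases before each start.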

Additional observations from a re-analysis of the deposited data

Results flagged for a closer look

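These probes had transient and stable effects that differed by the test of the difference (limma, Benjamini-Hochberg adjusted), out of 35 probes in all. The following differences are transient minus stable mean log2 ratios over 2 arrays each. The kind of control and the kind of transfection cannot be told apart in them, as stated above. Among probes called in the transient arrays, P2rx1 differed by 1.79 (adjusted p = 0.0218), Ogn by 1.83 (0.0417), the phospholipase C epsilon 1 probe by 1.23 (0.0302), the Eph receptor A3 probe by 1.18 (0.0296), Col8a1 by -1.34 (0.0218) and Nfkbiz by -1.78 (0.0265). P2rx1 was above 0 in both comparisons, with means of 2.76 in the transient and 0.97 in the stable arrays, and the other 5 were of opposite sign.

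For the other 9 probes the stable mean was the farther from 0. Osteopontin (Spp1) averaged -0.41 in the transient and 3.16 in the stable arrays (difference -3.58, adjusted p = 0.0102), and mesothelin (Msln), a surface protein of mesothelium, averaged -0.24 in the transient and 2.78 in the stable arrays (-3.02, 0.0218). Tcim averaged 0.42 in the transient and 3.18 in the stable arrays (-2.76, 0.0226), the lysophospholipase Enpp2 -0.11 in the transient and 1.77 in the stable arrays (-1.88, 0.0194), and the transcription factor Bhlhe40 -0.15 in the transient and 1.27 in the stable arrays (-1.42, 0.0218). In the other direction, the transcription factor Klf2 averaged 0.49 in the transient and -1.15 in the stable arrays (1.65, 0.0203), the inhibitor of differentiation Id2 0.31 in the transient and -0.75 in the stable arrays (1.06, 0.0469), and the RNA-binding protein Khdrbs3 -0.43 in the transient and -2.05 in the stable arrays (1.62, 0.0359). The sulfotransferase Sult1e1 averaged 0.42 in the transient and -0.64 in the stable arrays (1.06, 0.0302), with neither channel above background on the transient arrays. It was therefore tested only through the stable arrays, and its transient ratio is that of an undetected signal. None of these 9 was called in the transient arrays.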

How the results depend on the processing

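The number of transient calls, 21 as reported, ranged widely with the processing. It was 0 with plain background subtraction (3030 probes at an unadjusted p under 0.05, against 2958 as reported), 42 with no background correction, 12 with no filter on dim probes and 109 over bright probes alone. It was 647 after median centring (143 higher, 504 lower), 1400 after scaling between arrays (623 higher, 777 lower), 1288 in the transient arrays alone (560 higher, 728 lower) and 223 with the authors' deposited values (107 higher, 116 lower). Print-tip loess gave 15 (12 higher, 3 lower). Leaving out 1 array gave 3 to 1288, with 3 without the first transient array, 11 without the second and 1288 without either stable array, where only the transient arrays inform the spread. The 15 probes past 2-fold became 39 with plain subtraction, 31 after scaling and 31 with the authors' values, and 40 to 49 on a single array. The 35 calls of the difference became 0 with plain subtraction, 88 after median centring and 11 over bright probes, and 3 to 1345 when 1 array was left out (3 and 7 without transient arrays 1 and 2, 1345 and 258 without stable arrays 1 and 2). The cause was not tested where no array or probe was left out. All 21 calls remained under median centring, scaling, the authors' values, no background correction and the transient arrays alone. Of them, 14 remained with print-tip loess, 12 with no filter on dim probes, 10 over bright probes, 1 and 2 without transient arrays 1 and 2, and 0 with plain subtraction. The sign of the 53 named values was kept in 826 of 826 comparisons. The rule for named genes favours large ratios of the same sign on both arrays, so this outcome was largely set by that choice. P2rx1, which was not bright, otherwise lost its call under plain subtraction only. List medians changed sign in 37 of 464 comparisons, all in lists whose median lay within 0.10 of 0. Signal over background limits the precision of dim probes, for which the arrays agreed least. No paired analysis was possible because the labels give no replicate numbers that tie transient to stable arrays, and each ratio is already a difference within an array.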
